A study of Homo sapiens with 6 samples.

Results

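Chemokine genes and their receptors, apart from the interferon-inducible chemokines and the CXCL12 and CXCR4 pair, were followed in a colon cancer cell line with and without a drug that lowers DNA methylation. All probe sets whose RefSeq transcript belongs to a gene with a chemokine ligand or chemokine receptor symbol were taken, leaving out CCL5, CXCL9, CXCL10, CXCL11, CXCL12 and CXCR4. This gave 51 of the 1259 probe sets on the array, for 46 genes. Of these, 35 probe sets belong to 31 ligand genes and 16 to 15 receptor genes, and 5 genes (CXCL8, CXCL2, CXCL5, CCL23 and CCR6) have 2 probe sets each. The rule used gene symbols and no measured value, though it was chosen with earlier results of these data known.

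Chemokines are small secreted proteins that guide the movement of leukocytes, named after the spacing of their first cysteines as CC, CXC, CX3C or C (XCL) chemokines. They act through G protein-coupled receptors that are mostly carried by leukocytes, and they are held on cell surfaces by heparan sulfate. Colon epithelial cells are known as a source of ligands such as CXCL8 and CCL20, which draw neutrophils and CCR6-bearing lymphocytes.

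The cells were HCT-15, an established human colon cancer line. They were either left untreated or given 5-aza-2'-deoxycytidine, also called decitabine, a nucleoside that cells take up into DNA and that traps DNA methyltransferases, so that methylation is lost as cells divide. There were 3 arrays of total RNA in each group, all from the same line. The sources used here state neither a dose nor a duration, nor whether the replicates were grown as separate cultures. The p-values therefore rest on the spread between these arrays, which may be technical. Untreated replicate 3 carries a title that calls it treated, while its source name and treatment entry call it untreated, and counts are given with and without it. Each value is an RMA probe set value on the log2 scale, a summary of the brightness of the probes for one transcript, so that a difference of 1 is a 2-fold change. A probe set is said to be called higher or lower where limma's test of treated against untreated arrays gave an adjusted p under 0.05. The number of arrays limits the precision. Arrays of the same group correlated at 0.9974 to 0.9987 across all probe sets and arrays of different groups at 0.9817 to 0.9844. Untreated replicate 3 correlated with the other untreated arrays at 0.9978 or more, and with the treated arrays at 0.9844 at most. The 5 measured genes from a list of colon epithelial markers lay at 9.54 (LGALS4), 7.97 (MUC13), 6.09 (B3GNT6), 5.26 (GCNT3) and 4.16 (MUC17) in untreated cells, on an array that ran from 2.13 to 13.67, and MUC17 was among the 420 dimmest probe sets. MUC13 (0.96 ± 0.08) and GCNT3 (0.54 ± 0.09) were called higher and LGALS4 (-0.51 ± 0.07) lower in treated cells. Of 8 measured leukocyte markers CD33 and KLRD1 were called higher and CD22 lower, though not KLRD1 without untreated replicate 1 or 2 or treated replicate 1 or 2, nor CD22 without untreated replicate 2. Of all 927 named genes 37.3% were called. The linear values of the 8 leukocyte markers added up to 241 to 260 in untreated and 262 to 286 in treated arrays, and their part in the results below was not tested. In such bulk samples more cells with a transcript and more transcript per cell cannot be told apart.

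Treated cells had higher values for 5 chemokine genes and lower values for 2, and no receptor passed the test. CCL26, an eosinophil attractant, was 2.73-fold higher, CXCL8, the main neutrophil attractant (interleukin 8), 1.77-fold, XCL2, a lymphotactin, 1.67-fold, CXCL14, a chemokine of epithelia, 1.44-fold, and CCL20, the CCR6 ligand, 1.22-fold. CXCL5, another neutrophil attractant, was 1.27-fold lower in its brighter probe set and 1.35-fold lower in the other. CX3CL1, the membrane-bound fractalkine, was 1.24-fold lower. With limma and Benjamini-Hochberg adjustment over all 1259 probe sets, 9 of the 51 members (17.6%) were called, against 34.8% of all probe sets. There were 6 rises (11.8% of members, against 18.0% of all probe sets) and 3 falls (5.88%, against 16.8%). The groups did not overlap in 14 of the 51 probe sets, or 27.5%, against 46.1% of all. At 1.5-fold or more 4 members were called (7.84%, against 13.4% of all), and at 2-fold or more only CCL26 (1.96%, against 4.61%). By gene, with the brighter probe set standing for each, 7 of 46 were called (15.2%, against 37.3% of 927 named genes). The members' median log2 difference was 0.012, beside -0.012 for all probe sets, and their median absolute difference 0.081, beside 0.151.

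Many of these transcripts gave a low signal. Of the 51 member probe sets, 30 (58.8%, against 33.4% of all probe sets) lay among the 420 dimmest probe sets of the array, those with a mean of at most 4.9. There 4 of the 30 members were called (13.3%, against 18.3% of the 420), and above that level 5 of 21 (23.8%, against 43.0% of 839). The 4 dim ones were both sets of CXCL8 and those of CXCL14 and CCL20. Among the dim probe sets the members' share lay near that of all. No detection calls were used here, so a low value cannot be set against its background.

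**Figure D1:**
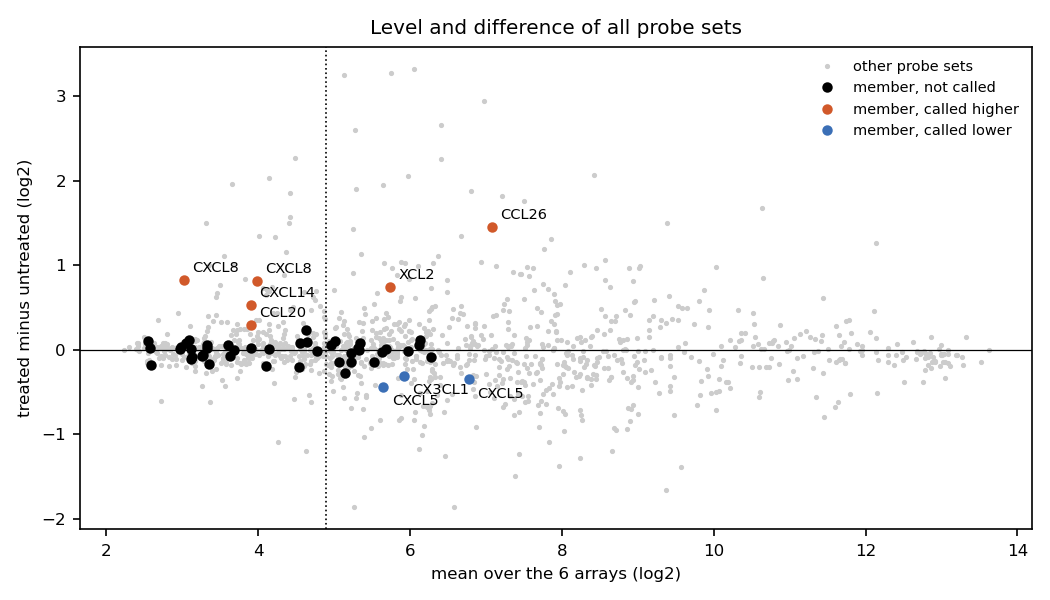
Each point is a probe set, placed by its mean over the 6 arrays (log2, horizontal) and by treated minus untreated (log2, vertical), with members coloured by call and the dotted line at a mean of 4.9. Most members lie near 0 and left of 6.3, and CCL26 at 1.45 is the member farthest from 0.

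The starts of the genes that moved are shown because the drug acts on methylation at CG pairs; methylation itself was not measured. RefSeq's GRCh38.p14 promoter table held 35 of the 46 member genes (those without an entry included CCL2, CCL4, CCL11, CCL16, CCL17, CCL21, CCR7, CCR8, CCR10 and CX3CL1). The sequences are the 250 bases before the gene start, on the gene's own strand, with every CG in capitals. CXCL8 (chr4:73740319-73740568, + strand) and CXCL5 (chr4:73998678-73998927, - strand) come first because these near neighbours moved in opposite directions. CXCL14 (chr5:135578992-135579241, - strand), CCL20 (chr2:227813592-227813841, + strand) and XCL2 (chr1:168543998-168544247, - strand) follow as the other genes that rose, and all 5 windows lie outside the annotated span of their own gene.
CXCL8: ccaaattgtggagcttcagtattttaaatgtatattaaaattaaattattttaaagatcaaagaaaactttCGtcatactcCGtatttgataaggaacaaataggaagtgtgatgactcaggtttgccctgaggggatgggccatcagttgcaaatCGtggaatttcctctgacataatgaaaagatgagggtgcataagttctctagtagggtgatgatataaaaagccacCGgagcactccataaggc
CXCL5: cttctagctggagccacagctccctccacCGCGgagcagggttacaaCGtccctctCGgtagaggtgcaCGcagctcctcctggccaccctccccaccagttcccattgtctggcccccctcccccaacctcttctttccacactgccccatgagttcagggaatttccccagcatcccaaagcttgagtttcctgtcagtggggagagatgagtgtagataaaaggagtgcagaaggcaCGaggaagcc
CXCL14: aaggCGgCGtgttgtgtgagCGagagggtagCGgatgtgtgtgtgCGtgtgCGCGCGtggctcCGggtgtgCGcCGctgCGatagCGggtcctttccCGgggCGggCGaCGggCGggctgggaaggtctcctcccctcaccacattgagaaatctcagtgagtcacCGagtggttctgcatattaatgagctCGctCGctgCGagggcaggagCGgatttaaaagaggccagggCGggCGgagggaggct
CCL20: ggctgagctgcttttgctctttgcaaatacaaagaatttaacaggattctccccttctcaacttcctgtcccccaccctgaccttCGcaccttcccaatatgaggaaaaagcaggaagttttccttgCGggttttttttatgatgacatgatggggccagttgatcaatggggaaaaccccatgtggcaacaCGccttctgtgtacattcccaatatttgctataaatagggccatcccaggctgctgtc
XCL2: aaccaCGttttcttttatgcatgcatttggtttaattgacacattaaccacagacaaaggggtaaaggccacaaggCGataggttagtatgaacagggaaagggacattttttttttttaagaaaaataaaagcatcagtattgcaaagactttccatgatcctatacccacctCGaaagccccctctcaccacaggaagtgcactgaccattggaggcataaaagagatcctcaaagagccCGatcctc
The capitals show a sparse pattern in CXCL8 (4 CG), CCL20 (3), XCL2 (4) and CXCL5 (6), and a dense one in CXCL14 (25). The window of CCL26, which is not printed because it lies inside the longest annotated span of its gene, held 4.

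Over the 35 members the median was 3 CG per 250 bases (range 1 to 25), while the median of 15841 protein-coding promoters in the table was 17. Windows inside the annotated span of their gene, such as that of CCL26, were counted too. CXCL14 was at or above 74.4% of those promoters, and CXCL8, XCL2 and CCL26 at or above 20.2%. The genes with 18 or more were CXCL14, which rose, and CXCL1 (18), CXCL2 (20) and CXCL3 (19), which were not called. The 5 genes that rose had a median of 4 CG and the 29 that were not called a median of 3, and CXCL5, which fell, had 6.

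**Figure D2:**
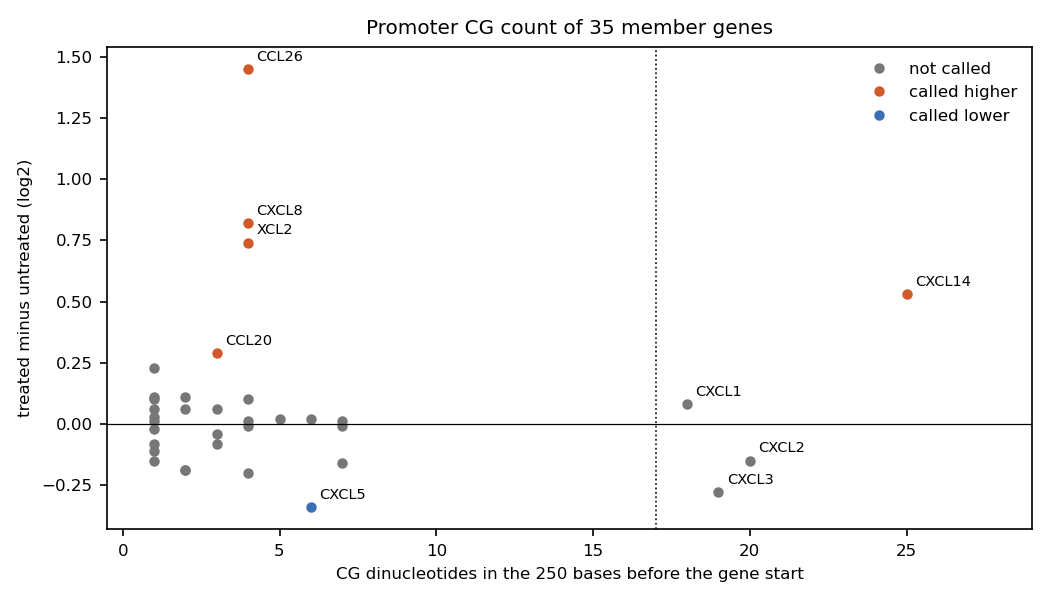
Each point is one of the 35 member genes with a promoter entry, placed by the number of CG pairs in the 250 bases before its start (horizontal) and by treated minus untreated (log2, vertical, from the probe set with the smaller p). The dotted line at 17 is the median of protein-coding promoters, and 4 of the 5 genes called higher lie at 3 or 4 CG.

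Letters that resemble known factor sites were searched on both strands of the same windows. GGNNNTTCC, part of many NF-kappaB sites, was in 11 of 24 ligand windows (45.8%) and in 0 of 11 receptor windows, beside 18.6% of protein-coding promoters. It lay in the windows of CXCL8, CCL20 and CXCL5, starting at -91, -79 and -90 from the gene start. It also lay in those of CXCL1, CXCL2, CXCL3, CXCL6, CCL1, CCL13, CCL15 and CCL18, none of which was called. TATAAA, the classic core promoter box, was likewise in 11 of 24 ligand windows (45.8%) and 0 receptor windows, beside 9.24% of protein-coding promoters, and started at -31 in CXCL8 and -29 in CCL20. The motifs did not overlap each other in the printed windows. These matches are letters in a window and were not measured as sites. The windows of CCR3, CCR9, CX3CR1, CXCR2, CXCR5, CXCR6 and XCR1 lie inside the annotated span of their gene. So do those of the ligands CCL22, CCL25 and CCL26. Such windows were kept in the counts, so the ligand and receptor shares compare partly unlike windows.

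The ligands of CXCR1 and CXCR2, which attract neutrophils, went both ways. CXCL8 has 2 probe sets. The first gave 2.55, 2.80 and 2.48 in untreated arrays and 3.50, 3.33 and 3.47 in treated arrays. Every treated value was above every untreated one, and the log2 difference was 0.82 ± 0.09 (SE, n = 3 per group, adjusted p = 5.5e-05, 1.77-fold). The other, whose name ends in x and marks probes that can also bind other transcripts, gave 3.43, 3.69 and 3.61 against 4.58, 4.48 and 4.10. Its groups did not overlap either, and its difference was 0.81 ± 0.12 (adjusted p = 0.000349, 1.75-fold). Both stood among the dimmest probe sets, and both were called in all 12 alternatives that included them.

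CXCL5 fell in both of its probe sets. The brighter one, also ending in x, gave 6.84, 7.13 and 6.87 in untreated arrays and 6.62, 6.68 and 6.51 in treated arrays (difference -0.34 ± 0.09 SE, adjusted p = 0.0125, 1.27-fold lower). The other gave 5.80, 6.07 and 5.73 against 5.57, 5.57 and 5.15 (-0.44 ± 0.13, adjusted p = 0.0194, 1.35-fold lower). The groups did not overlap in either set, but the gaps between them were small, 6.84 against 6.68 and 5.73 against 5.57. The second set was not called without untreated replicate 2 (adjusted p = 0.0916) or without treated replicate 3 (0.0607), and neither was called in an ordinary equal-variance test (0.162 and 0.0908). The ranges over the alternatives were 0.0126 to 0.162 and, for the set ending in x, 0.00794 to 0.0908.

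The other ligands of this receptor pair were not called. CXCL3 came nearest, with 5.12, 5.37 and 5.36 in untreated and 5.12, 5.08 and 4.81 in treated arrays, and a difference of -0.28 ± 0.10 (adjusted p = 0.0596). Its highest treated value equalled its lowest untreated one to 2 decimals. It was called without untreated replicate 1 (adjusted p = 0.0183), with quantile normalization (0.0459), with median centring (0.0271) and with an intensity trend (0.0454), in a range up to 0.213. The 2 probe sets of CXCL2 differed in sign, at -0.15 ± 0.11 and, for the set ending in x, 0.08 ± 0.07. CXCL1 differed by 0.08 ± 0.07 and CXCL6, the gene next to CXCL8, by 0.02 ± 0.08. CXCL1, CXCL2 and CXCL3 are closely related in sequence, and their probes may bind each other's transcripts. The receptors themselves gave 5.98 and 5.97 for CXCR1 and 2.96 and 2.98 for CXCR2, in untreated and treated cells. The 95% intervals of these 2 receptors' differences reached from -0.18 to 0.19. CXCR2 was among the dimmest probe sets, so its interval bounds the array value and not the change of the transcript.

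In gene order on chromosome 4, CXCL8, CXCL6, CXCL1, CXCL5, CXCL3 and CXCL2 follow each other with at most 2 other protein-coding genes between neighbours. Along this row the differences were 0.82, 0.02, 0.08, -0.34 and -0.44 (the 2 sets of CXCL5), -0.28, and -0.15 and 0.08 (the 2 sets of CXCL2). A rise of CXCL8 and a fall of CXCL5 thus stood within the same gene cluster, with members that were not called between them. Those between, CXCL6 and CXCL1, were among the dimmest probe sets, so their differences bound the array values and not the change of the transcripts.

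Among the eotaxins, which attract eosinophils through CCR3, only CCL26 was called. CCL26 (eotaxin-3) gave 6.17, 6.55 and 6.33 in untreated arrays and 7.80, 7.90 and 7.70 in treated arrays. The lowest treated value was more than 1 log2 unit above the highest untreated one. The difference was 1.45 ± 0.10 (SE, n = 3 per group, adjusted p = 1.48e-06), a 2.73-fold rise with a 95% interval of 2.34-fold to 3.18-fold, and it was called in all 13 alternatives. CCL24 (eotaxin-2), the next protein-coding gene to CCL26 on chromosome 7, gave 6.05, 6.07 and 6.14 against 6.02, 6.24 and 6.17, with a difference of 0.06 ± 0.08 (adjusted p = 0.639). Its 95% interval ended at 0.23, below the lower end of CCL26's interval at 1.22. CCL11 (eotaxin-1), among the dimmest probe sets, lay near 3.1 in both groups (3.17 and 3.08, difference -0.08 ± 0.08). CCR3, the receptor of all 3, went from 3.67 to 3.59 (-0.08 ± 0.08, adjusted p = 0.55).

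XCL2 encodes a C chemokine of lymphocytes that acts on XCR1, a receptor of cross-presenting dendritic cells. It gave 5.59, 5.32 and 5.18 in untreated and 6.04, 6.02 and 6.25 in treated arrays, with no overlap. The difference was 0.74 ± 0.11 (SE, adjusted p = 0.000307, 1.67-fold), called in all 13 alternatives. XCL1 is nearly identical to XCL2, so the probe set may read both. XCR1 went from 5.30 to 5.33 (0.03 ± 0.10).

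CXCL14, a chemokine made by epithelia of skin and gut, gave 3.55, 3.64 and 3.72 in untreated and 4.26, 4.04 and 4.20 in treated arrays. All treated values lay above the untreated ones, and the difference was 0.53 ± 0.08 (SE, adjusted p = 0.000469, 1.44-fold), called in all 12 alternatives that included it. Its probe set name ends in s, which marks probes shared by several transcripts, and it was among the dimmest of the array.

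CCL20, which attracts CCR6-bearing T helper 17 cells and dendritic cells to mucosa, gave 3.67, 3.81 and 3.81 in untreated and 4.14, 4.02 and 4.0 in treated arrays. The groups did not overlap, and the difference was 0.29 ± 0.07 (SE, adjusted p = 0.0109, 1.22-fold). The CCL20 probe set was among the dimmest of the array. It was not called without untreated replicate 1 (adjusted p = 0.053), without treated replicate 1 (0.0563) or after quantile normalization (0.0932), in a range that began at 0.00332. The 2 probe sets of its receptor CCR6 differed in sign and were not called (0.10 ± 0.09 and, for the set ending in x, -0.06 ± 0.10).

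CX3CL1, or fractalkine, is made as a membrane-bound stalk that captures leukocytes and can be shed. It gave 6.22, 6.09 and 5.93 in untreated and 5.75, 5.81 and 5.76 in treated arrays. The groups did not overlap, and the difference was -0.30 ± 0.08 (SE, adjusted p = 0.015, 1.24-fold lower). It was not called without untreated replicate 1 (adjusted p = 0.069), without untreated replicate 2 (0.0509), without treated replicate 1 (0.0536) or in the ordinary test (0.0781), in a range that began at 0.00436. Its neighbours on chromosome 16, CCL22 (-0.04 ± 0.07) and CCL17 (-0.03 ± 0.07), which both act on CCR4, were not called. CX3CR1, its receptor, went from 3.11 to 3.12.

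**Figure D3:**
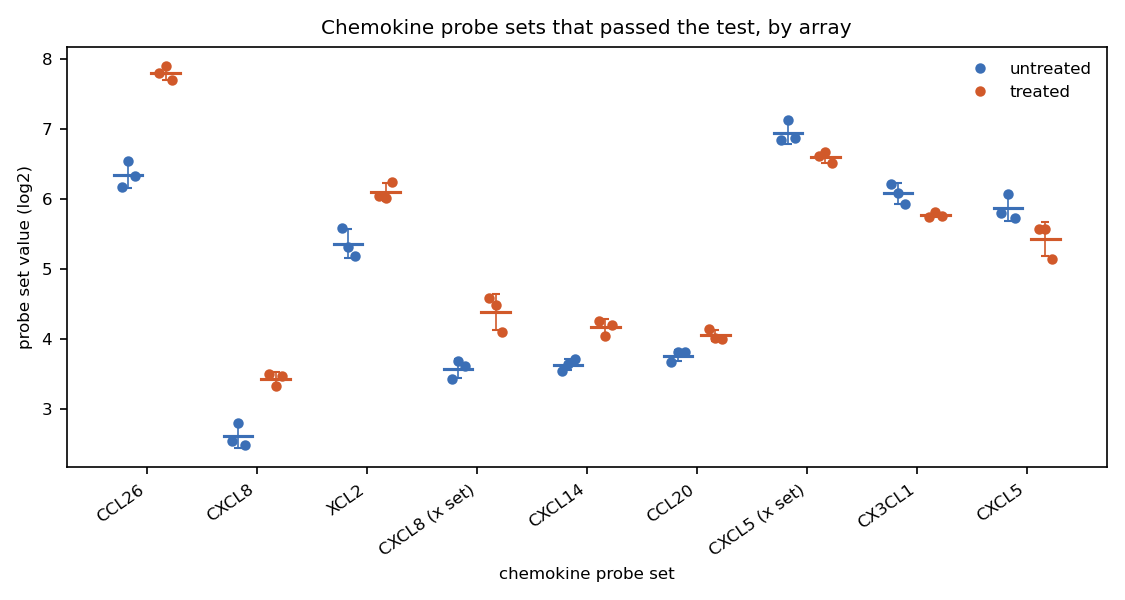
Points are the values of single arrays (log2, vertical) for the 9 chemokine probe sets that passed the test, with untreated arrays in blue and treated in orange, and bars show the mean and SD of 3 arrays. In all 9 the treated and untreated points do not overlap, and CCL26 has the widest gap (6.35 against 7.80).

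The remaining ligands were not called. Together with the uncalled neutrophil attractants and eotaxins they make 26 probe sets, whose differences ran from -0.28 to 0.23. The homing chemokines, which place lymphocytes in tissues and lymph nodes, had 0 of 7 probe sets called, against 34.8% of all. CCL27, the skin homing ligand of CCR10, gave 4.52, 4.40 and 4.62 in untreated and 4.65, 4.85 and 4.73 in treated arrays (0.23 ± 0.08, adjusted p = 0.0541). It was called without untreated replicate 3, the array with the conflicting title (adjusted p = 0.0326), with array weights (0.0456) and with an intensity trend (0.0405), in a range up to 0.188. CXCL13, the B cell attractant that acts on CXCR5, gave 2.59, 2.72 and 2.73 against 2.54, 2.45 and 2.49 (-0.19 ± 0.07, adjusted p = 0.0741). Both, read by probe sets among the dimmest of the array, had groups that did not overlap. So did CCL25, CCL15 and 1 set of CCL23, which makes 5 uncalled probe sets of that kind. CCL19 (0.06 ± 0.07) and CCL21 (-0.15 ± 0.10), the lymph node ligands of CCR7, lay on either side of 0.

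The monocyte attractants CCL2, CCL7, CCL8 and CCL13, which share CCR2 as a receptor and lie in one row on chromosome 17 with CCL11 and CCL1, had 0 of 4 called, against 34.8% of all probe sets. CCL13 had the largest difference (-0.20 ± 0.10, adjusted p = 0.149), and CCL2, the best known of them, went from 3.01 to 3.09 (0.08 ± 0.09). Among CCL1, CCL3, CCL4, CCL15, CCL16, CCL18 and CCL23 none was called in 8 probe sets. CCL23 had the lowest value there, with -0.19 ± 0.08 in one set (adjusted p = 0.118) and -0.07 ± 0.10 in the other. CCL15 gave 5.24, 5.40 and 5.25 against 5.15, 5.14 and 5.15 (-0.15 ± 0.07, adjusted p = 0.142). CCL3 (0.11 ± 0.08) and CCL4 (0.01 ± 0.08), known as macrophage inflammatory proteins, were near 0. CCL3, CCL4, CCL15 and CCL23 have close relatives whose transcripts their probes may also bind. In all, 0 of the 14 member genes on chromosome 17, where most CC chemokines and the receptor genes CCR7 and CCR10 lie, were called, against 37.3% of the 927 named genes. Apart from CCL3, CCL15 and CCR10, all these genes had probe sets among the 420 dimmest, of which 18.3% were called. Low signal limits what could be detected there. With median centring 1 set of CCL23 (adjusted p = 0.0286), CCL13 (0.0496) and CCL15 (0.0471) of this chromosome were called lower.

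No receptor probe set was called in limma's test, at an unadjusted p under 0.05 or in the ordinary test (0 of 16 each). Of all 1259 probe sets, 34.8% were called by limma, 41.9% had an unadjusted p under 0.05 and 344 were called in the ordinary test. No receptor had groups free of overlap. The differences ran from -0.16 to 0.12, and the widest 95% bounds were -0.33 and 0.31, which bound the array values and not the change of the transcripts. CXCR6, the receptor of CXCL16, was lowest, with 3.36, 3.44 and 3.52 in untreated and 3.36, 3.24 and 3.23 in treated arrays (-0.16 ± 0.08, adjusted p = 0.126). It was called after quantile normalization (adjusted p = 0.0485) and after median centring (0.0328), in a range up to 0.299. CCR10 was highest, going from 6.07 to 6.19 (0.12 ± 0.08, adjusted p = 0.296).

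Apart from CXCR6, CCR10, CCR3 and CCR6, the receptors stayed within 0.03 of 0 on the log2 scale. They included CCR4, CCR7, CCR8 and CCR9, CXCR3 and CXCR5, besides CXCR1, CXCR2, CX3CR1 and XCR1. CXCR3, the receptor of the interferon-inducible ligands, gave 5.67 and 5.68, and CCR7, the lymph node homing receptor, 4.79 and 4.78. The signal was low for many of them, with 11 of 16 receptor probe sets (68.8%) among the dimmest of the array, which limits the changes that could be detected.

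**Figure D4:**
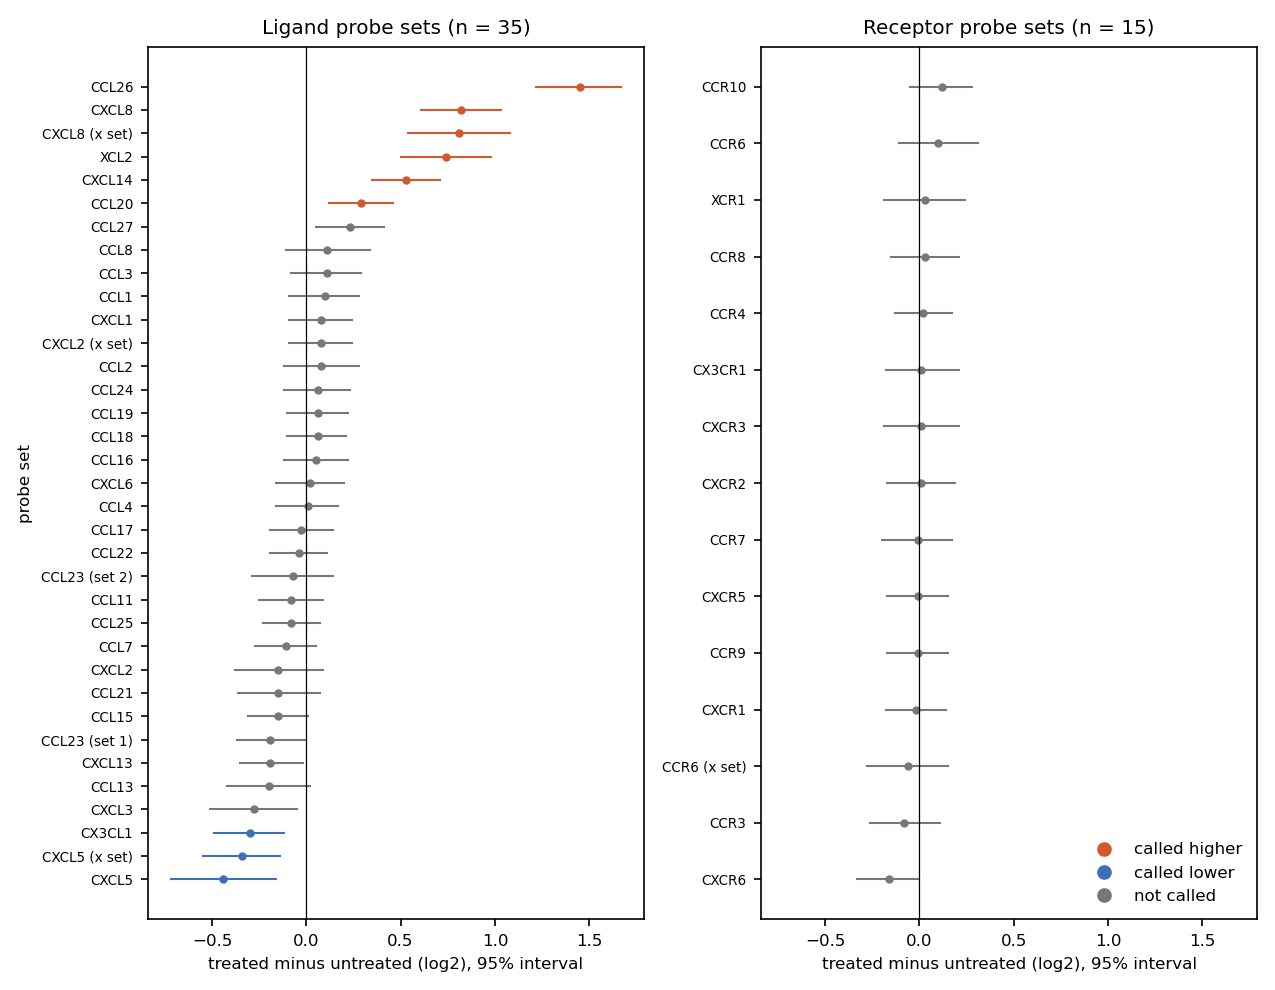
Points are treated minus untreated (log2, horizontal) for the 35 ligand and 15 of the 16 receptor probe sets, with lines for 95% intervals of limma's fit and colours for the call. Ligands spread from -0.44 (CXCL5) to 1.45 (CCL26), while the receptors shown lie between -0.16 and 0.12.

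The counts depended on how arrays were scaled. With each array centred on its median, 6 members were called higher and 9 lower (197 and 311 of all probe sets, against 227 and 211 as deposited), and after quantile normalization 5, without CCL20, and 8 (220 and 265). The added falls were those of CXCL3, CXCL13, CCL13, the receptor CXCR6 and 1 set of CCL23 under both, and of CCL15 under centring. Without untreated replicate 3 there were 7 rises, with CCL27 added, and 3 falls. Without untreated replicate 2 there were 6 rises and 1 fall, that of the CXCL5 set ending in x.

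Other genes of the chemokine system, in lists chosen for this work, are given for comparison. Of all 927 named genes, 183 were called higher and 163 lower (37.3% together). Of the 6 left-out genes 4 were called higher, with CCL5 at 2.05 ± 0.12, CXCL11 at 1.57 ± 0.10 and CXCR4 at 1.49 ± 0.08 on the log2 scale. CXCL11, CXCR4 and CXCL10 were among the dimmest probe sets. CXCL10 differed by 0.24 ± 0.07 (adjusted p = 0.0255, not called in 7 of 12 alternatives), while CXCL9 (0.01 ± 0.10) and the 3 probe sets of CXCL12 (-0.02 to 0.05) were not called. Both tyrosylprotein sulfotransferases, which sulfate the N-termini of chemokine receptors, rose. TPST1 went from 7.43 to 7.92 (0.49 ± 0.06, adjusted p = 0.000157) and TPST2 from 6.93 to 7.33 (0.41 ± 0.08, adjusted p = 0.00197). Of 3 measured genes that act like chemokines or their receptors without such a symbol, CD74, a receptor of MIF, was called (0.39 ± 0.08, adjusted p = 0.00354), and PF4 and PPBP, both platelet chemokines, were not.

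Heparan sulfate, which holds chemokines at the cell surface, had 3 rises and 2 falls among 24 genes of its chain enzymes (median log2 difference -0.014, beside -0.004 for all named genes). Counts in this paragraph are to be read beside the 37.3% of all 927 named genes that were called. HS6ST2, a 6-O-sulfotransferase, had the smallest p of the rises (1.96 ± 0.11, adjusted p = 3.96e-07) and HS3ST1, a 3-O-sulfotransferase, fell (-1.19 ± 0.08, adjusted p = 1.55e-06). Both were among the dimmest probe sets, and with those left out the list had 1 rise and 1 fall. That rise was of HPSE, heparanase, which cleaves the chains. In limma's fit to all probe sets it went from 8.27 to 9.01 (0.74 ± 0.09, adjusted p = 7.43e-05). The other fall was that of the 2-O-sulfotransferase HS2ST1 (limma, adjusted p = 0.0468). It was not called with any 1 untreated replicate left out, nor without treated replicate 2 or 3. The list's falls numbered 1 without untreated replicate 1 or 2 or treated replicate 2 or 3. They also numbered 1 with an intensity trend, with a replicate block and in an ordinary equal-variance test. Of 10 measured carriers of these chains at the surface 2 rose, SDC4 (0.70 ± 0.08, adjusted p = 3.6e-05) and CD44 (0.63 ± 0.08, adjusted p = 0.000124), and 1 fell (2 without untreated replicate 1), with a median of 0.130. The SDC4 set ends in x, and that of CD44 was among the dimmest probe sets, going from 3.13 to 3.76. Among 14 measured cytokines and cytokine receptors listed as linked to chemokine expression 4 rose and 1 fell, with a median of 0.080. The falls numbered 0 without untreated replicate 2 or treated replicate 1. IL4R, the receptor chain for interleukins 4 and 13, went from 7.12 to 8.0 (0.88 ± 0.12, adjusted p = 0.000157), and IFNGR1, the interferon gamma receptor, from 9.09 to 9.73 (0.64 ± 0.09, adjusted p = 0.000174). The cytokines IL1B (0.18 ± 0.07), IL1A (0.06 ± 0.08), IL4 (-0.18 ± 0.07), IL13 (0.06 ± 0.07), IL17A (0.09 ± 0.09) and IFNG (-0.01 ± 0.08) were not called. All of these except IL13 were among the dimmest probe sets.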

How the data were processed

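Biotin-labelled cRNA of HCT-15 total RNA was made by the Affymetrix protocol, per the labels' protocols, for 6 arrays. RMA made the log2 values that the authors deposited for 1259 probe sets, per the submitters' processing notes, and the log2 scale was read from the range of the values. The sources used here name no version of RMA, no array design and no build. RMA equalises arrays and compresses differences between dim probe sets. The number of columns left unused was 0.

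Transcript identifiers in probe set names were looked up, versions removed, in RefSeq's gene table (GRCh38.p14), which named 1043 probe sets and left 216 unnamed, 26 of them with an identifier that did not match. No 2 arrays shared more than 5 identical values. In R 4.3.3 with limma 3.58.1, a model with 1 treatment term was fitted to all probe sets of the 6 arrays (lmFit, eBayes, two-sided). Benjamini-Hochberg adjustment ran over all 1259, and an adjusted p under 0.05 was called. Errors are standard errors of this fit, intervals are 95% and folds are log2 differences taken out of the log scale. Where a gene had several probe sets, gene counts used the one with the highest mean. The steps were tested on simulated data.

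Members, lists and motifs were chosen with earlier results of these data known. A search for ISRE-like (interferon response) motifs was planned but not run, and TATAAA was added to the plan. All members could be named. Outside them, the rule named the left-out chemokines, TPST1, TPST2 and at most the 2 called genes of smallest p per list. HPSE, HS2ST1, PF4, PPBP, the uncalled cytokines and the markers were named after their values were seen. Correlations of members with other genes were not computed, since the 6 arrays fall into 2 groups. Of 8 measured stromal and endothelial markers 1 was called higher (0 without untreated replicate 1 or 2 or treated replicate 1 or 3) and 2 lower. Called in either direction were 37.3% of the 927 named genes. One receptor gene is included in the counts, but its own values are not reported here.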

Additional observations from a re-analysis of the deposited data

How the results depend on the processing

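Alternatives were quantile normalization, median centring, leaving out the 420 dimmest probe sets, an intensity trend, weights for arrays, a replicate block, an ordinary equal-variance test and each array left out in turn. No member called in any of them reversed its direction. CCL26, XCL2, CXCL14 and both CXCL8 sets kept their call wherever they were tested. With the dimmest probe sets left out, 2 of 21 member probe sets were called higher, beside 168 of all 839 tested. CXCL8, CXCL14 and CCL20 were not tested there, and 4 member genes were called. Members called lower were 8 with quantile normalization, 9 with centring on medians and 0 by the ordinary test, against 3, and the causes were not tested. Of all 1259 probe sets, 265, 311 and 164 were called lower in the same order, against 211. Member genes called numbered 11 after quantile normalization and 13 after centring, against 7. All named genes together were not counted under the alternatives. With 1 array left out, 5 to 7 member probe sets were called higher and 1 to 3 lower, and 376 to 440 of all 1259 were called. With the replicate block, 6 members were called higher and 3 lower, as without it, and 394 of all probe sets. Deviations of same-numbered arrays from their group means correlated at -0.274, 0.037 and -0.111, and those of different-numbered arrays at -0.328 to 0.422. Taken from means of 3 arrays, such correlations cannot decide whether the samples were paired. The main fit left the block out. Low signal limits what can be said of 30 of the 51 member probe sets.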
